A study of Mus musculus with 9 samples.

Results

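The adaptors and kinases that link Toll-like receptors and IL-1 family receptors to NF-κB and MAP kinases were examined in mouse peritoneal macrophages. They were taken by name as 10 of the 54059 genes of the deposited table: *Cd14*, *Myd88*, *Irak4*, *Irak1*, *Irak2*, *Irak3*, *Traf6*, *Map3k7*, *Tab2* and *Map3k8*. All 10 had a mean level of at least 1 FPKM (reads corrected for transcript length and depth) over the 9 libraries and so were among the 11450 genes tested.

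The cells were adherent peritoneal macrophages of C57BL/6 mice, collected by lavage 3 days after 1 ml of starch broth had been injected. RNA-seq libraries fell into 3 groups of 3. The wild-type group carried no deletion. The M-Shp2-/- group, labelled SHP2lyz2-/-, came from mice with floxed *Shp2* alleles and the *Lyz2*-cre transgene, which is active in monocytes, mature macrophages and granulocytes. The SHP099 group was wild-type macrophages pretreated for 2 h with 10 µM SHP099, an allosteric inhibitor of the phosphatase SHP2. The study calls the macrophages compared with them untreated, or a medium control, and mentions no vehicle for them, so effects of SHP099 and of its solvent cannot be told apart. The labels give an age of 8 weeks for all 9 samples, whereas the study's methods allow up to 10 weeks. By those methods the macrophages had been stimulated for 4 h with IMQ (imiquimod), an agonist of TLR7. No unstimulated library was analysed here, so how far IMQ itself had moved a gene was not tested. Sources do not state that the 3 replicates of a group were separate animals, so p-values measure the spread between these samples, which may be technical. Depth, estimated from the FPKM values and mean transcript lengths, lay between 39843145 and 50981136 reads per library. The questions were whether loss or inhibition of SHP2 goes with a change in the RNA of this relay, and whether both differ from each other.

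When a Toll-like receptor binds its ligand, MyD88 recruits IRAK4 and then IRAK1 or IRAK2, and these kinases pass the signal to the ubiquitin ligase TRAF6. Ubiquitin chains built by TRAF6 are bound by TAB2, which brings the kinase TAK1 (gene *Map3k7*) to the IKK complex and to the MAP kinase kinases, while TPL2 (gene *Map3k8*) carries the signal to ERK in macrophages. IRAK3, also called IRAK-M, is a restraining member of the family that is typical of monocytes and macrophages, and CD14 is a coreceptor that hands ligands to several Toll-like receptors.

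*Ptpn11*, the gene of SHP2, checks the labels. Its level was 45.8, 44.0 and 40.0 FPKM in wild-type libraries 1, 2 and 3, 18.6, 17.8 and 18.9 FPKM in the M-Shp2-/- libraries, and 43.0, 42.1 and 39.6 FPKM in the SHP099 libraries. All 3 M-Shp2-/- libraries therefore lay below the other 6, and the SHP099 libraries overlapped the wild-type ones. *Ptpn11* fell by 1.19 on the log2 scale in M-Shp2-/- macrophages (standard error 0.10, adjusted p = 0.0168 from limma).

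The summed macrophage markers rested mainly on *Lyz2* and *Cd68*. The 7 listed genes summed to 9416, 12033 and 9694 FPKM in the wild-type, 6890.1, 6879 and 7192 FPKM in the M-Shp2-/- and 11009, 12071 and 12559.6 FPKM in the SHP099 libraries. *Lyz2*, whose promoter drives Cre in these mice, set the lower sum of the M-Shp2-/- libraries, at 4863, 4743 and 5407 FPKM against at least 7440 FPKM in wild-type libraries. *Fcgr1* (0.701 to 5.79 FPKM) and *Mertk* (3.28 to 13.3 FPKM) were low. *Mertk* was lower in every M-Shp2-/- library, at 3.28, 4.35 and 3.98 FPKM, than in every wild-type library, at 6.10, 7.39 and 13.3 FPKM. The other markers did not move one way. *Itgam* stood at 62.2, 88.6 and 74.7 FPKM in wild-type and 52.1, 45.8 and 111 FPKM in M-Shp2-/- libraries. With SHP099 it was at 89.4, 73.2 and 76.4 FPKM, and all groups overlapped. *Csf1r* stood at 58.2, 67.8 and 110.6 FPKM in wild-type, 87.4, 71.8 and 176 FPKM in M-Shp2-/- and 181, 211 and 206 FPKM in SHP099 libraries. *Cd68* stood at 1498, 1339 and 1294 FPKM in wild-type, 1603, 1739.5 and 1227 FPKM in M-Shp2-/- and 1211, 1271 and 1269 FPKM in SHP099 libraries. *Csf1r* was thus higher and *Cd68* lower in every SHP099 library than in every wild-type library, while *Adgre1*, at 172, 230.1 and 279 FPKM with SHP099 against 349, 299.6 and 245 FPKM in wild-type libraries, overlapped. RNA of fibroblasts and stroma varied from library to library within each group. Its 6 markers, led by *Col1a1*, summed to 63.8, 303 and 39.8 FPKM in wild-type, 135, 51.4 and 586 FPKM in M-Shp2-/- and 361, 137 and 101 FPKM in SHP099 libraries. Wild-type 2, M-Shp2-/- 3 and SHP099 1 were thus the libraries with the most stromal RNA, and *Lum*, a defining marker, stayed at or below 0.251 FPKM in all 9. Mast cell markers, led by *Kit*, summed to 5.62, 3.998 and 4.75 FPKM in wild-type, 2.48, 3.17 and 0.995 FPKM in M-Shp2-/- and 0.654, 0.495 and 0.970 FPKM in SHP099 libraries, and so were lowest with SHP099. T cell markers, led by *Cd3g*, summed to 0.765, 2.09 and 4.84 FPKM in wild-type, 0.824, 0.498 and 2.76 FPKM in M-Shp2-/- and 5.60, 4.31 and 4.18 FPKM in SHP099 libraries. Mesothelium markers reached 8.97 FPKM, eosinophils 0.720 FPKM and dendritic cells 1.77 FPKM in the library where each sum was highest, and cell types not named here are not covered by these sums. Neutrophil markers summed to between 89.2 and 168.0 FPKM, mostly from *Csf3r*, which macrophages also express, and *S100a8*, at 34.5 to 95.4 FPKM, while *Ly6g* was at or below 0.0362 FPKM. *S100a8* exceeded *Csf3r* in wild-type library 2, M-Shp2-/- library 3 and SHP099 library 3. *Xist* stood at 91.7 to 159.8 FPKM and 3 of the 4 Y-linked genes were at 0 in every library. The part of these other cells in the results below was not tested.

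M-Shp2-/- library 3 stood apart from its group. Across the 11450 genes, which are not independent replicates, M-Shp2-/- libraries 1 and 2 correlated at 0.992, whereas library 3 correlated at 0.967 and 0.954 with them and at 0.984 with SHP099 library 1. Wild-type library 3 was also the most distant of its group, at 0.976 and 0.974. Its *Ptpn11* level of 18.9 FPKM leaves M-Shp2-/- library 3 with its label, and calls of the 10 genes that change without a library are given both ways.

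In wild-type macrophages *Cd14* was the most abundant of the 10, at 1296 ± 258 FPKM (SD, n = 3), and its mean over all 9 libraries, 1031 FPKM, ranked 61 among the 11450 genes. *Irak3* followed at 124.4 ± 9.36 FPKM, *Irak2* at 106 ± 21.2 FPKM and *Tab2* at 92.4 ± 7.17 FPKM (SD, n = 3 each). Next came *Myd88* at 60.8 ± 8.40 FPKM, *Irak1* at 54.5 ± 9.25 FPKM and *Map3k8* at 43.7 ± 5.95 FPKM (SD, n = 3 each). *Map3k7* at 26.2 ± 3.07 FPKM, *Traf6* at 21.8 ± 2.44 FPKM and *Irak4* at 13.9 ± 1.58 FPKM (SD, n = 3 each) were the least abundant. FPKM is corrected for transcript length, and how the authors set that length is not stated, so the order of the genes and ratios between them depend on it. Libraries overlapped between neighbours in this order for *Irak3* and *Irak2*, *Irak2* and *Tab2*, *Myd88* and *Irak1*, *Irak1* and *Map3k8*, and *Map3k7* and *Traf6*. The order of the means was the same in the SHP099 group, and in M-Shp2-/- macrophages it differed only in that *Irak1* stood above *Myd88*, with overlapping libraries. The kinase that opens the relay, *Irak4*, was thus the scarcest transcript of the 10 and the coreceptor the most plentiful. The lowest read number behind any value, recovered from the FPKM in the same way, was 1297 reads, for *Irak4*. Counting error alone amounts to 2.78% there. The plot of levels by library shows all 90 values.

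**Figure D1:**
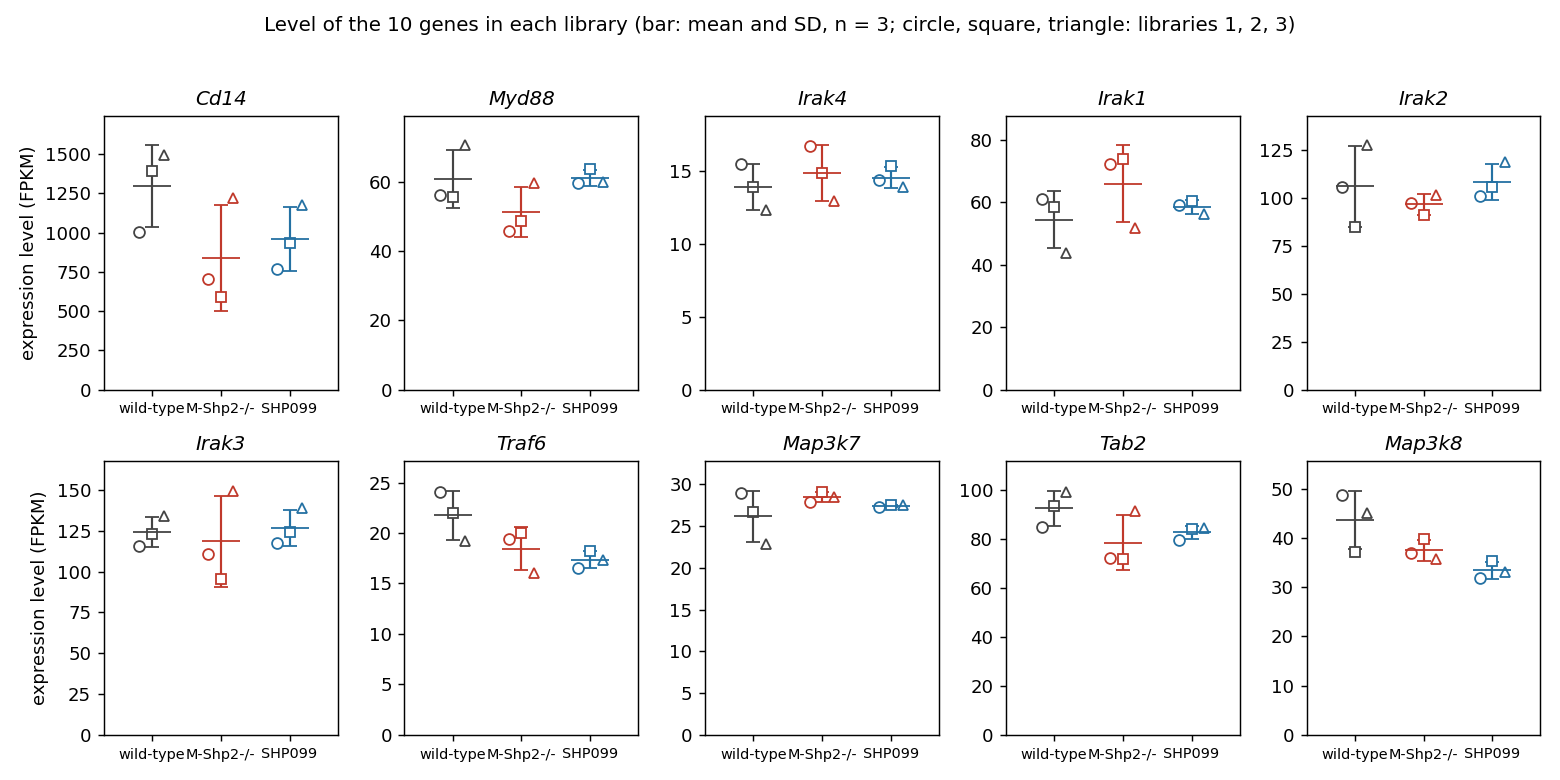
Level in FPKM (y axes, from 0) of the 10 genes in each library of the wild-type, M-Shp2-/- and SHP099 groups (x axes). Open symbols are libraries, and bars are the mean and SD of n = 3. *Cd14* spans 589 to 1495 FPKM, with all groups overlapping, and *Traf6* and *Map3k8* are lower in every SHP099 library than in every wild-type library.

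*Cd14* (ENSMUSG00000051439, chromosome 18 of GRCm38, 36725067 to 36726798) showed the widest spread of the 10. It stood at 1004, 1389 and 1495 FPKM in wild-type, 705, 589 and 1220.1 FPKM in M-Shp2-/- and 769, 934 and 1177 FPKM in SHP099 libraries. M-Shp2-/- libraries 1 and 2 lay below every other library, but M-Shp2-/- library 3 lay above wild-type library 1, and the SHP099 values overlapped both groups. Against wild-type, the log2 fold change on the log2(FPKM + 1) scale was -0.68 in M-Shp2-/- macrophages (standard error 0.29, 95% confidence interval -1.38 to 0.02, adjusted p = 0.478 from limma). Of the 11450 genes, 2.14% had a lower log2 fold change there, which places *Cd14* near the low end of the range without a call. In SHP099-treated macrophages it was -0.43 (standard error 0.20, interval -0.91 to 0.04, adjusted p = 0.222 from limma). Without M-Shp2-/- library 3 the value against wild-type was the lowest of any alternative tried, -0.99, and it was still not called. In these bulk samples, fewer cells of a type and less RNA per cell cannot be told apart.

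*Myd88* (ENSMUSG00000032508, chromosome 9, 119335934 to 119341411) encodes the adaptor itself. Its level was 56.2, 55.7 and 70.5 FPKM in wild-type, 45.7, 48.8 and 59.6 FPKM in M-Shp2-/- and 59.8, 63.8 and 59.8 FPKM in SHP099 libraries. Each M-Shp2-/- library lay below each SHP099 library, by a narrow margin between M-Shp2-/- library 3 (59.56 FPKM) and SHP099 library 1 (59.76 FPKM). The M-Shp2-/- and wild-type libraries overlapped through M-Shp2-/- library 3. The log2 fold change against wild-type was -0.24 in M-Shp2-/- macrophages (standard error 0.14, adjusted p = 0.516 from limma) and 0.02 with SHP099 (standard error 0.11, adjusted p = 0.944), the latter turning to -0.13 with median-of-ratios scaling and to -0.04 with quantile normalization. Between M-Shp2-/- and SHP099 macrophages it was -0.26 (standard error 0.11, interval -0.52 to 0.01, adjusted p = 0.399 from limma). Without M-Shp2-/- library 3 this difference was -0.37 with an adjusted p of 0.0158 from limma. The adjusted p of this difference ranged from 0.0158 to 0.803 over 16 alternatives.

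The IRAK family was led by *Irak3* and *Irak2*, not by the kinases that start the cascade. Within the summed IRAK level, *Irak3* made up 41.6% ± 2.60 in wild-type, 39.8% ± 6.69 in M-Shp2-/- and 41.1% ± 1.11 in SHP099 macrophages (SD, n = 3 each). *Irak2* held 35.3% ± 4.89, 32.7% ± 0.469 and 35.2% ± 0.996 in the same groups (SD, n = 3 each). *Irak1* took 18.4% ± 3.96, 22.5% ± 5.45 and 19.0% ± 1.68, and *Irak4* 4.67% ± 0.702, 5.04% ± 0.835 and 4.73% ± 0.426 (SD, n = 3 each). For each *Irak4* transcript there were, per length, between 3.56 and 4.97 of *Irak1* and between 6.42 and 11.6 of *Irak3* in the 9 libraries. The family's summed level stayed between 275 and 328 FPKM in all 9, so the libraries differed more in its make-up than in its total. The stacked shares by library show *Irak1* at its largest share in M-Shp2-/- library 2 and at its smallest in wild-type library 3.

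**Figure D2:**
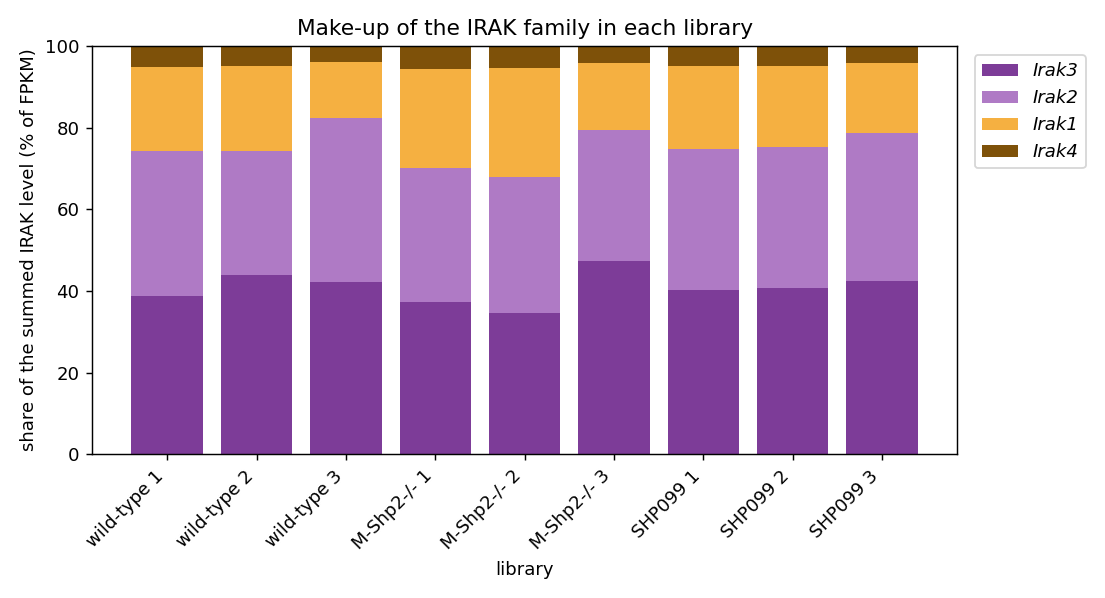
Share of each of the 4 *Irak* genes in their summed FPKM (y axis, %) in each of the 9 libraries (x axis). *Irak3* and *Irak2* together fill most of every bar, *Irak1* ranges from 13.8% to 26.8%, and *Irak4* is at or below 5.64% throughout.

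*Irak4* (ENSMUSG00000059883, chromosome 15, 94543643 to 94581815), the kinase that MyD88 recruits directly, was at 15.5, 13.9 and 12.3 FPKM in wild-type, 16.8, 14.8 and 12.9 FPKM in M-Shp2-/- and 14.4, 15.4 and 13.9 FPKM in SHP099 libraries. *Irak1* (ENSMUSG00000031392, chromosome X, 74013914 to 74023918), a substrate of IRAK4, was at 61.0, 58.5 and 43.9 FPKM in wild-type, 72.1, 73.8 and 51.8 FPKM in M-Shp2-/- and 59.0, 60.4 and 56.1 FPKM in SHP099 libraries. Both were lowest in library 3 of each group, and *Irak1* was higher in M-Shp2-/- libraries 1 and 2 than in any other library. The log2 fold change of *Irak1* was 0.27 in M-Shp2-/- against wild-type macrophages (standard error 0.19, interval -0.18 to 0.71, adjusted p = 0.545 from limma). Against SHP099 it was 0.15 (standard error 0.14, adjusted p = 0.670 from limma), and 0.31 with an adjusted p of 0.0197 without M-Shp2-/- library 3, in a range of 0.0197 to 0.954 over 16 alternatives. With SHP099 against wild-type it was 0.12 (adjusted p = 0.625 from limma), with the opposite sign, -0.03, under median-of-ratios scaling.

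*Irak2* (ENSMUSG00000060477, chromosome 6, 113638467 to 113695026), which can take the place of IRAK1 in prolonged signaling, stood at 106, 85.2 and 127.6 FPKM in wild-type, 97.3, 91.1 and 101.8 FPKM in M-Shp2-/- and 101, 105.7 and 119 FPKM in SHP099 libraries. *Irak3* (ENSMUSG00000020227, chromosome 10, 120141648 to 120202130), the restraining member, stood at 115.6, 123 and 134 FPKM in wild-type, 110.7, 95.4 and 149.7 FPKM in M-Shp2-/- and 117, 124.5 and 139.0 FPKM in SHP099 libraries. For both genes library 3 was the highest of each group, and the groups overlapped. The log2 fold change against wild-type was -0.12 for *Irak2* and -0.09 for *Irak3* in M-Shp2-/- macrophages, with adjusted p-values of 0.709 and 0.798 from limma. With SHP099 the values were 0.05 and 0.03, with adjusted p-values of 0.874 and 0.876 from limma, and both were below 0 under median-of-ratios scaling. *Irak4* gave 0.09 in M-Shp2-/- and 0.07 in SHP099 macrophages, and both values changed sign with median-of-ratios scaling and with quantile normalization.

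Exons of *Myd88*, *Irak2*, *Irak3* and *Irak4* overlap genes on the opposite strand, namely *Acaa1a*, *Gm43963*, *Tmbim4* with *Gm47009*, and *Twf1*. The strand used in counting is not given in the sources used here, so reads from these overlaps cannot be told apart. The mean level over the 9 libraries was 66.7 FPKM for *Acaa1a*, 71.9 FPKM for *Twf1* and 229.7 FPKM for *Tmbim4*, against 0.677 FPKM for *Gm43963* and 0.383 FPKM for *Gm47009*. Exons of *Irak1* hold the microRNA genes *Mir5132* and *Mir718* on its own strand. No exon of *Traf6*, *Map3k7*, *Tab2*, *Map3k8* or *Cd14* overlaps another annotated gene.

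*Traf6* (ENSMUSG00000027164, chromosome 2, 101678429 to 101701669), the ubiquitin ligase below the IRAK kinases, was at 24.1, 22.0 and 19.2 FPKM in wild-type, 19.4, 20.0 and 16.0 FPKM in M-Shp2-/- and 16.6, 18.2 and 17.3 FPKM in SHP099 libraries. All 3 SHP099 libraries lay below all 3 wild-type libraries, whereas the M-Shp2-/- libraries overlapped both groups. With SHP099 the log2 fold change was -0.30 (standard error 0.11, interval -0.56 to -0.05, adjusted p = 0.130 from limma), which did not pass. It passed in 3 of 16 alternatives: -0.44 with median-of-ratios scaling (adjusted p = 0.0371 from limma), -0.41 with quantile normalization (adjusted p = 0.0432) and -0.39 without wild-type library 3 (adjusted p = 0.0422). Over all 16 the log2 fold change lay between -0.44 and -0.23 and the adjusted p between 0.0371 and 0.358. In M-Shp2-/- macrophages the log2 fold change of *Traf6* was -0.23 (standard error 0.13, adjusted p = 0.514 from limma).

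*Map3k7* (ENSMUSG00000028284, chromosome 4, 31964097 to 32023467), which encodes TAK1, was the steadiest of the 10. It read 28.9, 26.7 and 22.8 FPKM in wild-type, 27.9, 29.0 and 28.4 FPKM in M-Shp2-/- and 27.3, 27.5 and 27.5 FPKM in SHP099 libraries, a ratio of highest to lowest of 1.27. Only wild-type library 3 was far from the rest. The M-Shp2-/- libraries lay above the SHP099 libraries by 0.05 on the log2 scale (limma, standard error 0.07, adjusted p = 0.773). Against wild-type the log2 fold change was 0.12 in M-Shp2-/- and 0.07 in SHP099 macrophages, with adjusted p-values of 0.614 and 0.709 from limma, and both were negative with median-of-ratios scaling, the latter also with quantile normalization.

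*Tab2* (ENSMUSG00000015755, chromosome 10, 7905653 to 7956230), the subunit that binds ubiquitin chains, stood at 84.8, 93.5 and 99.0 FPKM in wild-type, 72.2, 71.6 and 91.3 FPKM in M-Shp2-/- and 79.7, 83.9 and 84.2 FPKM in SHP099 libraries. Every SHP099 library was below every wild-type library, by a narrow margin between SHP099 library 3 and wild-type library 1. M-Shp2-/- libraries 1 and 2 were the lowest of all 9, and M-Shp2-/- library 3 was inside the wild-type range. The log2 fold change against wild-type was -0.24 in M-Shp2-/- (standard error 0.13, adjusted p = 0.492 from limma) and -0.16 in SHP099 macrophages (standard error 0.08, adjusted p = 0.276 from limma). *Tab2* exceeded *Map3k7* by 2.47 to 4.33 times in FPKM, the lowest ratio being in M-Shp2-/- library 2 and the highest in wild-type library 3.

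*Map3k8* (ENSMUSG00000024235, chromosome 18, 4331327 to 4353015), which encodes TPL2, was at 48.8, 37.2 and 45.2 FPKM in wild-type, 37.0, 39.9 and 35.6 FPKM in M-Shp2-/- and 31.9, 35.3 and 33.2 FPKM in SHP099 libraries. The SHP099 libraries were the lowest 3 of the 9, although SHP099 library 2 and M-Shp2-/- library 3 were close to each other. The log2 fold change with SHP099 against wild-type was -0.37 (standard error 0.12, interval -0.64 to -0.10, adjusted p = 0.0994 from limma), and over 16 alternatives the adjusted p lay between 0.0584 and 0.293. In M-Shp2-/- against wild-type macrophages it was -0.21 (standard error 0.12, adjusted p = 0.515 from limma). Between M-Shp2-/- and SHP099 macrophages the libraries did not overlap, and the log2 fold change was 0.16 (limma, standard error 0.08, adjusted p = 0.458).

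**Figure D3:**
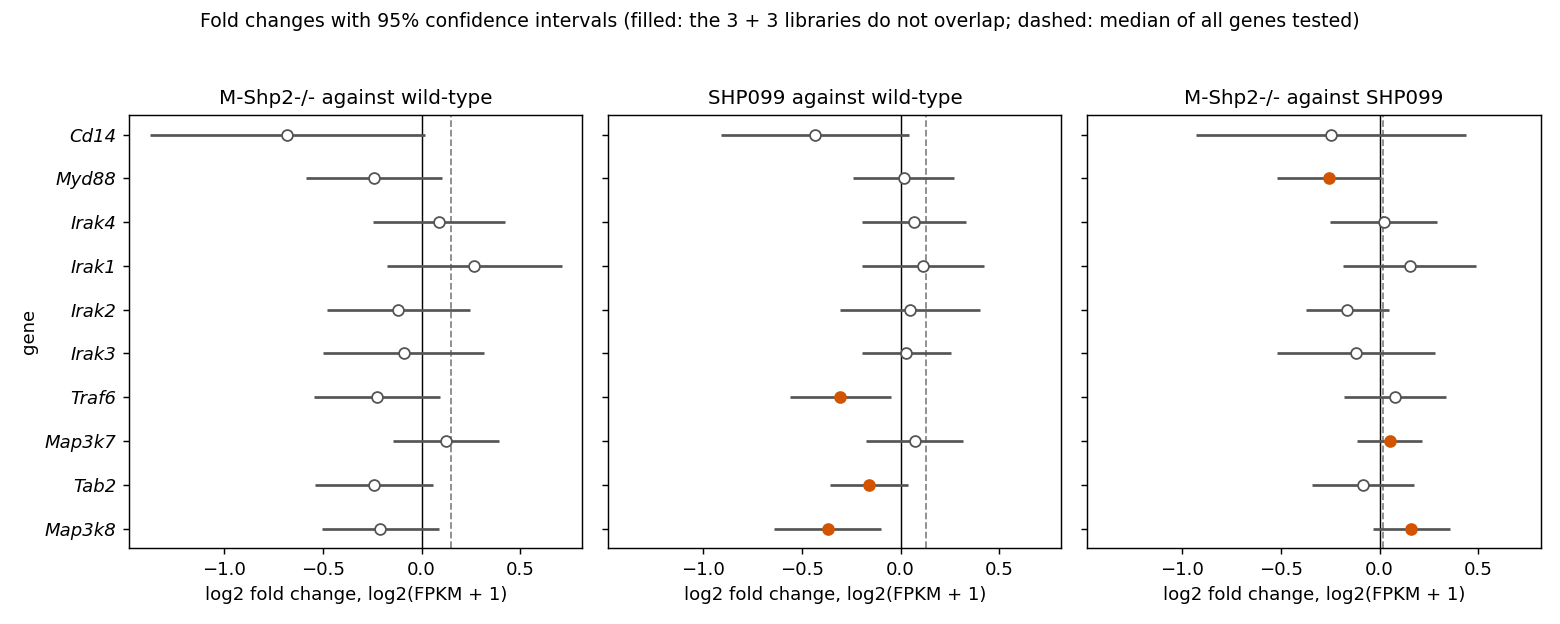
Log2 fold changes on the log2(FPKM + 1) scale (x axes) of the 10 genes (y axis) in the 3 comparisons, with 95% confidence intervals from limma. Filled points mark genes whose 3 and 3 libraries do not overlap, and the dashed line is the median of the 11450 genes tested, 0.15, 0.13 and 0.02 from left to right. The interval of *Cd14* in M-Shp2-/- macrophages, from -1.38 to 0.02, is the widest.

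In M-Shp2-/- against wild-type macrophages, limma called 0 of the 10 genes at an adjusted p of at most 0.05, where 10 of the 11450 genes, or 0.0873%, were called. None had an unadjusted p under 0.05, where 294 of the 11450 genes were lower and 910 higher, and voom on reads recovered from the FPKM also called 0 of 10. The study's own thresholds ask for an adjusted p up to 0.005 and a 2-fold difference up or down. Applied here to limma, they took 0.00873% of all genes and 0 of the 10. The study applied them to DESeq, whose calls are not compared here. Of the 10 genes, 7 had a lower mean log2 value and 3 a higher one, against 2586 lower and 8864 higher of the 11450 genes. Among the higher ones, *Irak4* and *Map3k7* changed sign with median-of-ratios scaling. For 0 genes of the 10 did the libraries separate, whereas 3.07% of all genes lay lower without overlap and 16% higher. The median log2 fold change of the 10 was -0.16, and that of all genes tested was 0.15. The median size of the change was 0.22 for the 10 and 0.19 for all genes. Median-of-ratios scaling, which brings the median of all genes close to 0 by construction, left it at 0.01, and the cause of the shift was not tested. Relative to the median of all genes, *Cd14* was at -0.83, *Tab2* at -0.39, *Myd88* at -0.39, *Traf6* at -0.37 and *Map3k8* at -0.36. The remaining members lay between -0.26, for *Irak2*, and 0.12, for *Irak1*. The confidence interval lay within a log2 fold change of 1 in either direction for 9 of the 10, and *Cd14* was the exception. The number of genes called among the 11450 was 8 without M-Shp2-/- library 3, 1 without M-Shp2-/- library 1 or 2 or wild-type library 2, 2 without wild-type library 1 and 5 without wild-type library 3, and the members called remained at 0 each time. The sign of *Irak2* changed without wild-type library 3, to 0.02, and that of *Irak3* without M-Shp2-/- library 2, to 0.05.

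A few cytokines, picked after their values were seen, were read in the same libraries. *Il6* stood at 221, 237 and 258 FPKM in wild-type and at 51.3, 54.1 and 51.3 FPKM in M-Shp2-/- libraries, which is -2.17 on the log2 scale (limma, adjusted p = 0.00117). *Il1b* had a log2 fold change of -2.48 in the same comparison. *Il1a* stood at 1215, 1373 and 1048 FPKM in wild-type and at 354, 344 and 326 FPKM in M-Shp2-/- libraries. *Tnf* stood at 4216, 2375 and 6247 FPKM in wild-type and at 2573, 2733 and 3709 FPKM in M-Shp2-/- libraries, with overlap, and its value of -0.42 was smaller in size than that of *Cd14* and did not pass (limma, adjusted p = 0.587). In SHP099 libraries *Il6* was at 25.9, 18.3 and 58.4 FPKM, *Il1b* at 192, 99.96 and 409 FPKM, *Il1a* at 218, 68.2 and 185 FPKM and *Tnf* at 3724, 3513 and 4768 FPKM. Among the 10 relay genes, *Cd14* had the lowest bound of any interval against wild-type, -1.38 in M-Shp2-/- and -0.91 in SHP099 macrophages. Apart from *Cd14*, the lowest bound was -0.58 in M-Shp2-/- and -0.64 in SHP099 macrophages. Because the cytokines were picked after their values were seen, a contrast between them and the relay was not tested.

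With SHP099 against wild-type, where the wild-type libraries were the same controls, limma again called 0 of the 10 at an adjusted p of at most 0.05, against 797 of 11450 genes, or 6.96%. At an unadjusted p under 0.05 there were 2, *Traf6* and *Map3k8*, both lower, where 705 of the 11450 genes were lower and 2356 higher, and voom called 0. Applied to limma, the study's thresholds took 0.166% of all genes and 0 of the 10. *Traf6*, *Tab2* and *Map3k8* were lower without overlap, 3 of 10 against 6.77% of all genes, and 0 of 10 were higher without overlap, against 27.9% of all genes. Of the 10, 4 had a lower and 6 a higher mean log2 value, against 3298 lower and 8152 higher of the 11450 genes. The median log2 fold change of the 10 was 0.02 and that of all genes 0.13, the latter being -0.000175, near 0 by construction, with median-of-ratios scaling. Relative to the median of all genes, *Cd14* was at -0.56, *Map3k8* at -0.50, *Traf6* at -0.43 and *Tab2* at -0.29, while the other 6 lay between -0.11 and -0.01. All 10 intervals lay within a log2 fold change of 1. *Traf6* was the 1 member called with median-of-ratios scaling, where 5.02% of all genes were called, with quantile normalization, where 6.11% were, and without wild-type library 3, where 11.1% were. Leaving out 1 library turned the value of each of *Myd88*, *Irak1*, *Irak2*, *Irak3*, *Irak4* and *Map3k7* below 0 at least once. Among the 11450 genes, 284 were called without wild-type library 1, 399 without wild-type library 2, 1273 without wild-type library 3, and 90, 47 and 116 without SHP099 libraries 1, 2 and 3.

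Between M-Shp2-/- and SHP099 macrophages, limma called 0 of the 10 at an adjusted p of at most 0.05, against 8 of 11450 genes, or 0.0699%. No member had an unadjusted p under 0.05, where 702 of the 11450 genes were lower and 735 higher. Voom called 0 of the 10, and the study's thresholds, applied to limma, took 0% of all genes. *Myd88* was lower without overlap, 1 of 10 against 9.76% of all genes, and *Map3k7* and *Map3k8* were higher without overlap, 2 of 10 against 7.9% of all genes. Without M-Shp2-/- library 3, *Myd88* and *Irak1* were called, 2 of 10, but so were 2277 of the 11450 genes, or 19.9%, a share like that of the members. Among the 11450 genes, 0 were called without M-Shp2-/- library 1 or any SHP099 library, and 2 without M-Shp2-/- library 2. With SHP099, *Traf6* and *Map3k8* had lower values than in M-Shp2-/- macrophages by 0.08 and 0.16 on the log2 scale, and neither difference passed. The sign of *Irak3* changed without M-Shp2-/- library 2, and that of *Irak4* without M-Shp2-/- library 1 or SHP099 library 3.

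Much of the variation of the 10 genes lay between libraries of 1 group. The groups accounted for 35.3% of the variance of log2(FPKM + 1) over the 9 libraries in the median member and for 37.9% in the median gene tested. The share was 66.7% for *Map3k8* and 57.3% for *Traf6*, and 7.99% for *Irak3* and 9.55% for *Irak4*. In all 3 groups, library 3 had the highest level of *Irak2*, *Irak3*, *Tab2* and *Cd14* and the lowest of *Irak1* and *Irak4*. These are 6 of the 10, against 31.3% of all genes tested, of which 4.67% were highest and 26.7% lowest in library 3 of every group. No member was extreme in library 1 or library 2 of all groups, against 11.2% and 3.86% of all genes tested. The deviation map by library shows *Cd14* and *Tab2* on the opposite side of their means from *Irak1* in wild-type library 3 and in M-Shp2-/- libraries 1, 2 and 3.

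**Figure D4:**
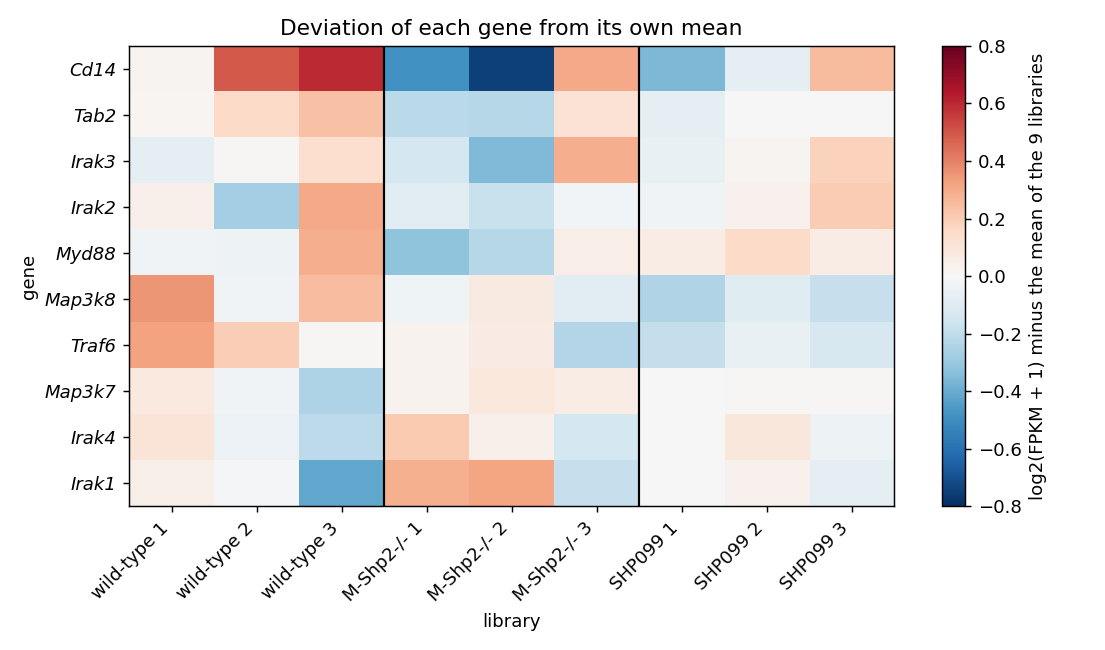
Log2(FPKM + 1) of each of the 10 genes (y axis) in each library (x axis) minus the mean of the gene over the 9 libraries, as color. *Cd14* has the strongest colors, and within the M-Shp2-/- group library 3 differs in sign from libraries 1 and 2 for *Cd14*, *Tab2*, *Irak3*, *Myd88*, *Traf6*, *Irak4* and *Irak1*.

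For each of the 10, the tested gene with the most similar profile was taken by Pearson's r of log2(FPKM + 1) over n = 9 libraries, which share groups and library effects. *C1qa*, a complement component made by macrophages, was the nearest for both *Cd14* and *Tab2*, each with r = 0.98. The nearest gene was *Sat1* for *Myd88* (r = 0.97), *Mrps36* for *Irak1* (r = 0.998), *Arhgef3* for *Irak2* (r = 0.98), *Fcna* for *Irak3* (r = 0.98) and *Bag1* for *Irak4* (r = 0.98). It was *Dlgap4* for *Traf6* (r = 0.97), *Btaf1* for *Map3k7* (r = 0.98) and *Tlr8*, a receptor that signals through MyD88, for *Map3k8* (r = 0.93). Each r is the highest among all genes tested and is given as a description.

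Promoter windows from RefSeq on GRCm38.p6, 300 bases long around each start site, were at hand for 8 of the 10 genes in 11 windows. They were searched on both strands for the NF-κB consensus, the AP-1 motif TGANTCA and the cyclic AMP response element (CRE), because the relay ends in factors that bind these motifs. The NF-κB consensus was found in 3 of the 11 windows, against 8.46% of 32851 promoter windows. The AP-1 motif and the CRE were found in 0 of the 11, against 7.81% and 1.79% of all windows. The 3 windows belong to *Map3k7* and to *Irak1*, which has a pair of overlapping windows with the same match. The matches are shown with up to 10 flanking bases on each side, upstream of the start site, with the match in capitals.
*Map3k7*, chr4:31964005-31964034, plus strand: ccccgggtcaGGAAATTCCCcgctcgggtc
*Irak1*, chrX:74023922-74023949, minus strand: agggcggcgcGGGACGCCCCcgtgtggc
The *Map3k7* match starts 92 bases and the *Irak1* match 18 bases before the start site, the former matching on the minus strand and the latter on both strands. Of these genes, *Map3k7* had the narrowest range of the 10 and *Irak1* was not called in any of the 3 comparisons with all libraries. A match is a description of the letters only.

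Of 48 other genes of the pathway, 42 had a mean of at least 1 FPKM, and *Sarm1*, *Ube2v1*, *Map2k6*, *Lbp*, *Tlr9* and *Il18r1* did not. In M-Shp2-/- against wild-type macrophages limma called 0 of the 42, and at an unadjusted p under 0.05 there were 1 lower and 4 higher, against 294 lower and 910 higher of the 11450 genes. The largest values that did not pass were *Tlr8* at -0.73 (adjusted p = 0.478), *Ikbkg*, the gene of the IKK subunit NEMO, at 0.54 (adjusted p = 0.462) and *Irak1bp1* at 0.46 (adjusted p = 0.467). Between M-Shp2-/- and SHP099 macrophages 0 of 42 were called, with 4 lower and 3 higher at an unadjusted p under 0.05, against 702 lower and 735 higher of the 11450 genes, and 10 of 42 were called without M-Shp2-/- library 3, where 19.9% of all genes were. The largest values there were *Tlr8* at 1.16 (adjusted p = 0.300), *Tlr7* at 0.50 (adjusted p = 0.324) and *Ticam2* at -0.50 (adjusted p = 0.465). Voom called 0 in both comparisons.

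With SHP099 against wild-type, 5 of the 42 were called, 3 lower and 2 higher, where 2.41% of all genes were called lower and 4.55% higher. The 3 lower ones were receptors. *Tlr7*, the receptor of IMQ, was at 89.6, 87.0 and 102.6 FPKM in wild-type and at 49.6, 48.7 and 67.8 FPKM in SHP099 libraries, and at 73.8, 88.5 and 72.0 FPKM in M-Shp2-/- libraries. Its SHP099 libraries lay below all others, and limma put the difference from wild-type at -0.75 on the log2 scale (standard error 0.14, adjusted p = 0.0314). *Tlr8*, closely related to *Tlr7*, fell from 72.3, 37.5 and 60.3 FPKM to 8.93, 16.4 and 18.4 FPKM, or by 1.90 on the log2 scale (limma, standard error 0.31, adjusted p = 0.0228). *Tlr2*, a receptor that CD14 serves, fell from 366, 436 and 424 FPKM to 271, 291 and 306 FPKM, or by 0.49 on the log2 scale (limma, standard error 0.10, adjusted p = 0.0325). Higher were *Peli3*, an IRAK-binding ubiquitin ligase, at 22.4, 22.7 and 20.0 FPKM against 11.6, 13.8 and 11.7 FPKM in wild-type (log2 fold change 0.77, adjusted p = 0.0159 from limma), and *Mapk8*, the gene of JNK1 (log2 fold change 0.49, adjusted p = 0.0365). *Mapk8* stood at 15.1, 15.6 and 15.9 FPKM with SHP099 against 9.80, 11.3 and 11.3 FPKM in wild-type, and at 16.6 FPKM in M-Shp2-/- library 3 against 10.1 and 8.10 FPKM in M-Shp2-/- libraries 1 and 2. The 3 largest that did not pass were *Peli2* at 0.62 (adjusted p = 0.0878), *Ikbkg* at 0.57 (adjusted p = 0.105) and *Tlr13* at 0.52 (adjusted p = 0.0739). The plot of pathway genes by role places the called genes among the receptors, the CD14 partners, the IRAK regulators and the kinases below TAK1. The count of 5 became 12 without wild-type library 3, 2 without wild-type library 1 or 2, 0 without SHP099 library 1 or 2 and 1 without SHP099 library 3. It became 0 with no filter on low FPKM, so that no gene named here was then called, and 8 among genes with a mean of at least 5 FPKM.

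**Figure D5:**
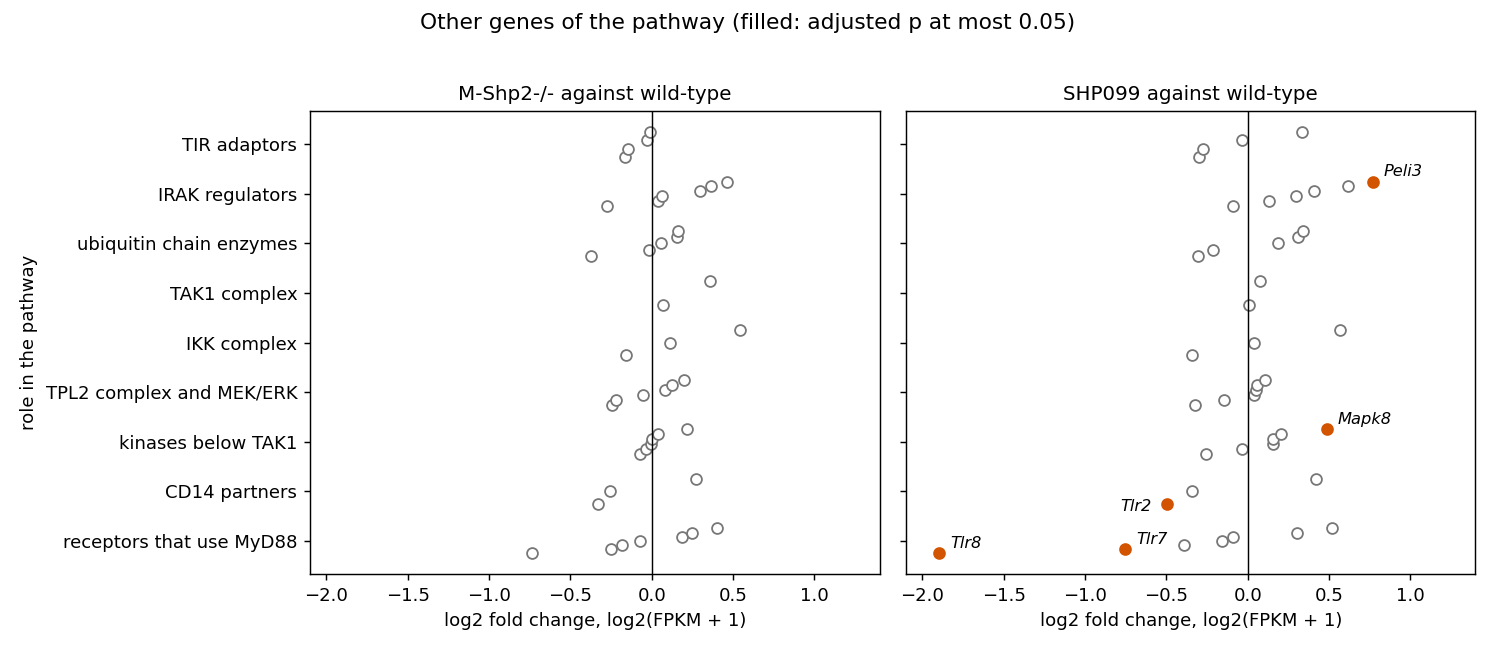
Log2 fold changes on the log2(FPKM + 1) scale (x axes) of 42 other pathway genes, 1 point each, by role (y axis), for M-Shp2-/- and SHP099 against wild-type macrophages. Filled points, with names, passed limma at an adjusted p of 0.05. None is filled on the left, and on the right *Tlr8*, *Tlr7* and *Tlr2* lie below 0 and *Mapk8* and *Peli3* above.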

How the data were processed

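Alignment by HISAT2 (version 2.0.4) and counting by HTSeq (version 0.9.1) were done by the authors, who deposited FPKM values. The genome annotation they used is not given in the sources used here. The 10 genes and the other lists were chosen with earlier results of these data known. FPKM were tested as log2(FPKM + 1) with limma (version 3.58.1, R 4.3.3, eBayes with trend, two-sided) for the 11450 genes with a mean of at least 1 FPKM, on the 6 libraries of the groups compared, with Benjamini-Hochberg adjustment over all genes tested. An exact permutation test of 3 against 3 cannot go below p = 0.1. Reads were recovered from FPKM and mean transcript length for depth and for voom, and 96.2% to 96.7% of values of up to 50 reads were whole within 0.05. The test was also run on simulated data, but its outcome there is not given here and no result rests on it. Pathway genes were named if called, or as the 3 largest in a comparison that did not pass. *Il6*, *Il1b*, *Il1a*, *Tnf* and the overlapping genes were named after their values were seen. Another deposited table, of gene spans without measurements, was not used here.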

Additional observations from a re-analysis of the deposited data

How the results depend on the processing

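Tried instead were other pseudocounts (0.1, 5), no filter, a mean of at least 5 FPKM, quantile normalization, median-of-ratios scaling, eBayes without trend, all 9 libraries in one fit, a replicate block, voom on recovered reads, and each library left out in turn. Of the log2 fold changes of the 10 genes under these 16 alternatives, 160 of 160 stayed on their side of an adjusted p of 0.05 in M-Shp2-/- against wild-type macrophages, 157 of 160 with SHP099 against wild-type and 158 of 160 between M-Shp2-/- and SHP099. The sign changed in 5, 19 and 4 of them, in 4, 6 and 2 genes, of which 0 was called.

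The count of members called, 0 in each comparison, was 1 with SHP099 under median-of-ratios scaling and under quantile normalization. With a library left out it ranged from 0 to 1 with SHP099 and from 0 to 2 between M-Shp2-/- and SHP099. The causes were not tested.

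For the whole table, M-Shp2-/- against wild-type gave 10 genes, 6 without trend, and 1 to 8 with a library left out. SHP099 against wild-type gave 797 genes, 74 with no filter (26663 genes tested), and 47 to 1273 with a library left out. M-Shp2-/- against SHP099 gave 8 genes, 3 with no filter, 17 at a mean of at least 5 FPKM, 3 with all 9 libraries in one fit, 14 with voom, and 0 to 2277 with a library left out. Pathway genes called with SHP099, 5 in all, were 0 with no filter, 8 at a mean of at least 5 FPKM and 0 to 12 with a library left out, and between M-Shp2-/- and SHP099 they were 0 to 10 with a library left out. The causes of these moves were not tested.

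The replicate number as a block gave 2, 591 and 0 genes in the 3 comparisons and 0 members in each. The sources state no pairing of samples with the same number, and the values do not settle it: deviations from the group means correlated between -0.431 and 0.492, over 0.1 in 4 of 9 pairs, and 6 of 18 times was a sample nearest to its own number.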
